A study of Homo sapiens with 5 samples.

Results

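The genes described here had almost no reads in NK92MI cells kept with solvent and a low but repeated count after UNC1999. They were chosen on the counts themselves: a gene symbol on 1 line of the count table, at most 8 reads summed over both DMSO libraries, and at least 8 reads in each UNC1999 library. Of 57221 lines in the table, 55282 carried a symbol found once, 41023 of those were at or under the DMSO bound, and 36 genes (0.0878% of the 41023) met both bounds. NK92MI is an interleukin-2-independent line of human natural killer (NK) cells. One group of 3 libraries came from cells cultured with 10 µM UNC1999, an inhibitor of EZH2 and EZH1, and a second group of 2 libraries from cells cultured with the solvent DMSO, both for 48 h. All 5 libraries came from this line, which carries an introduced IL2 gene and has the tissue label lymphoid, and no statement in the labels ties a library to its own culture, so every p-value here reflects scatter among these libraries alone and possibly only technical scatter. Counts are whole reads per gene as the authors deposited them.

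EZH2 and EZH1 are the alternative catalytic subunits of polycomb repressive complex 2 (PRC2), which methylates a lysine of histone H3 at silent genes. Classic targets are promoters rich in CpG dinucleotides that belong to developmental regulators, and PRC1, a complex that ubiquitinates another histone, acts at many of the same sites. Loss of PRC2 activity is known to let some of these genes be transcribed again, which is why genes near silence in the solvent are of interest in such an experiment. In RNA from a whole culture, a few cells with many transcripts and many cells with few cannot be told apart.

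Library totals were 8644161, 8718661 and 8687863 counts with UNC1999, against 8442908 and 8748106 with DMSO. At these depths 8 reads correspond to 0.914 to 0.948 CPM, a unit that scales counts to the library total. A count of 0 allows up to 3 reads (0.343 to 0.355 CPM), a limit for counting error alone. The 9 NK markers examined, such as NKG7 and PRF1, were all expressed, with sums of 46224, 40833 and 46632 counts with UNC1999 and 38631 and 40783 with DMSO. Of 44 markers of other cell types, 34 were at or under the DMSO bound and 19 had no read in any library. Those above it included PAX5 of the B cell list, with 149 to 219 reads with UNC1999 and 193 to 201 with DMSO. In the myeloid list ITGAM had 234 to 319 with UNC1999 and 295 to 328 with DMSO, and CSF1R 51 to 59 and 41 to 49. SYT1 of the neuronal list had 35 to 53 with UNC1999 and 23 to 35 with DMSO. The T cell list reached 5968 to 6584 counts with UNC1999 and 6079 to 6670 with DMSO, nearly all from CD3E and TRAC, and the stromal list 2331 to 2912 with UNC1999 and 1870 to 2010 with DMSO, nearly all from PDGFRB. UNC1999 replicate 2 stood apart from the other two: the chi-square statistic per gene was 7.47 against replicate 1 and 8.77 against replicate 3, while replicates 1 and 3 differed by 1.81 and the DMSO libraries by 3.14.

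Of the 36 genes, 9 have an entry in a RefSeq set of promoters (GRCh38.p14, 250 bases before and 50 after the start), and 4 of them are printed to show the range of CpG content: FCHO2 at the high end, NSUN7 near the median, and CRYGS and ZBED2 at the low end. In each, CpG dinucleotides are in capitals. The promoter of FCHO2, a membrane-bending protein gene of early clathrin-mediated endocytosis, lies on the plus strand at chr5:72955791-72956090 and has 34 CpG. That of NSUN7, a member of the NOP2/Sun family of RNA methyltransferases, lies on the plus strand at chr4:40749705-40750004 and has 25. CRYGS, which encodes a gamma crystallin of the eye lens, has 2 in its promoter on the minus strand at chr3:186544331-186544630. ZBED2, a zinc finger gene of a family derived from DNA transposases, has 1 on the minus strand at chr3:111595297-111595596.
FCHO2: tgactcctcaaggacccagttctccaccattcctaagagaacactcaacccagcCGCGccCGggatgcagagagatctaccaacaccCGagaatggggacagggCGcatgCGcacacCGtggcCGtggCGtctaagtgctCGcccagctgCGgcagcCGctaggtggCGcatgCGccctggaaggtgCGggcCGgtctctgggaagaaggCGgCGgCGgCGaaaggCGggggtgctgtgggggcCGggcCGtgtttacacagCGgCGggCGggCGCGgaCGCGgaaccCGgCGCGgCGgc
NSUN7: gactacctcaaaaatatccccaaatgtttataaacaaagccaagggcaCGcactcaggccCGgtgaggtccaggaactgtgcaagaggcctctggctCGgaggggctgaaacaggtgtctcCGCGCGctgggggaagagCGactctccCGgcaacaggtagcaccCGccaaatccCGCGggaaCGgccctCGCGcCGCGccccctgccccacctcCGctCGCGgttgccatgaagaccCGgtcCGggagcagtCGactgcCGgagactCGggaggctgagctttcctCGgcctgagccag
CRYGS: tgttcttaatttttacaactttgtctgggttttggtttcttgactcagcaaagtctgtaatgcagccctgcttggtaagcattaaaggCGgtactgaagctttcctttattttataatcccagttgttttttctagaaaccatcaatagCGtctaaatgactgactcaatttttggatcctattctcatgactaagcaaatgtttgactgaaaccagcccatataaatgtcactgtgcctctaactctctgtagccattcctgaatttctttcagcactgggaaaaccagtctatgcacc
ZBED2: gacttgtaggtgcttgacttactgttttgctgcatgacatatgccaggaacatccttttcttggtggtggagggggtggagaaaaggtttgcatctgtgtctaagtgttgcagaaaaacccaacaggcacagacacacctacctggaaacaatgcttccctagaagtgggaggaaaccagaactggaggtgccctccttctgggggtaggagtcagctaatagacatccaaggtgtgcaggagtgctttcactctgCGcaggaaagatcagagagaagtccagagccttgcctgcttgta

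The ratio of observed to expected CpG is 0.944 for FCHO2, 0.799 for NSUN7, 0.182 for CRYGS and 0.0547 for ZBED2. Over the 9 promoters the median was 0.797, and 6 (66.7%) were island-like, here a ratio of at least 0.6 with a GC content of at least 50%. Among 7282 promoters of other genes at or under the DMSO bound, the median was 0.443 and 38.8% were island-like, and among 8868 promoters of genes above the bound the median was 0.841 and 79.4% were island-like. The 9 promoters include both kinds, and 9 sequences are too few to place the set between those groups. No entry matched the other 27 genes, FKBP14, FSBP, ACKR4, YY2, GALNT4, ARHGEF17 and SNORD100 among them.

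**Figure D1:**
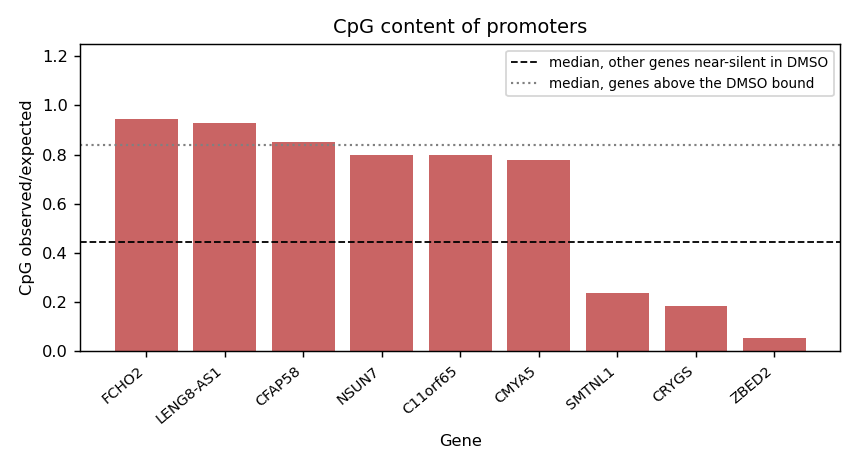
Ratio of observed to expected CpG (vertical axis, no unit) in 1 promoter entry of 300 bases for each of 9 genes of the set (bars). The dashed line is the median of other genes near silence in DMSO (0.443) and the dotted line that of genes above the DMSO bound (0.841). For 6 genes the bars lie between 0.778 and 0.944, and for SMTNL1, CRYGS and ZBED2 at 0.236 or less.

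The 36 genes were not switched on from zero. None had 0 reads in both DMSO libraries, and the lowest DMSO total was 2. Only FSBP had 0 reads in 1 DMSO library. Their summed counts were 420, 392 and 381 with UNC1999, against 113 and 118 with DMSO (43.9 to 48.6 CPM with UNC1999, against 13.4 and 13.5 CPM with DMSO). The median gene of the set had 11, 10 and 10 reads with UNC1999, against 3 and 3 with DMSO. The highest count of any of them in a UNC1999 library was 19. These values follow from the rule, which by itself demands a mean count at least 2-fold higher with UNC1999, and they are given as a description. The ratio of counts per library total lay between 2.06 and 13.9, with a median of 3.21. Most genes sit close to the bounds: 13 had a DMSO total of exactly 8, 17 had a lowest UNC1999 count of exactly 8, and 24 met at least 1 of these conditions.

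**Figure D2:**
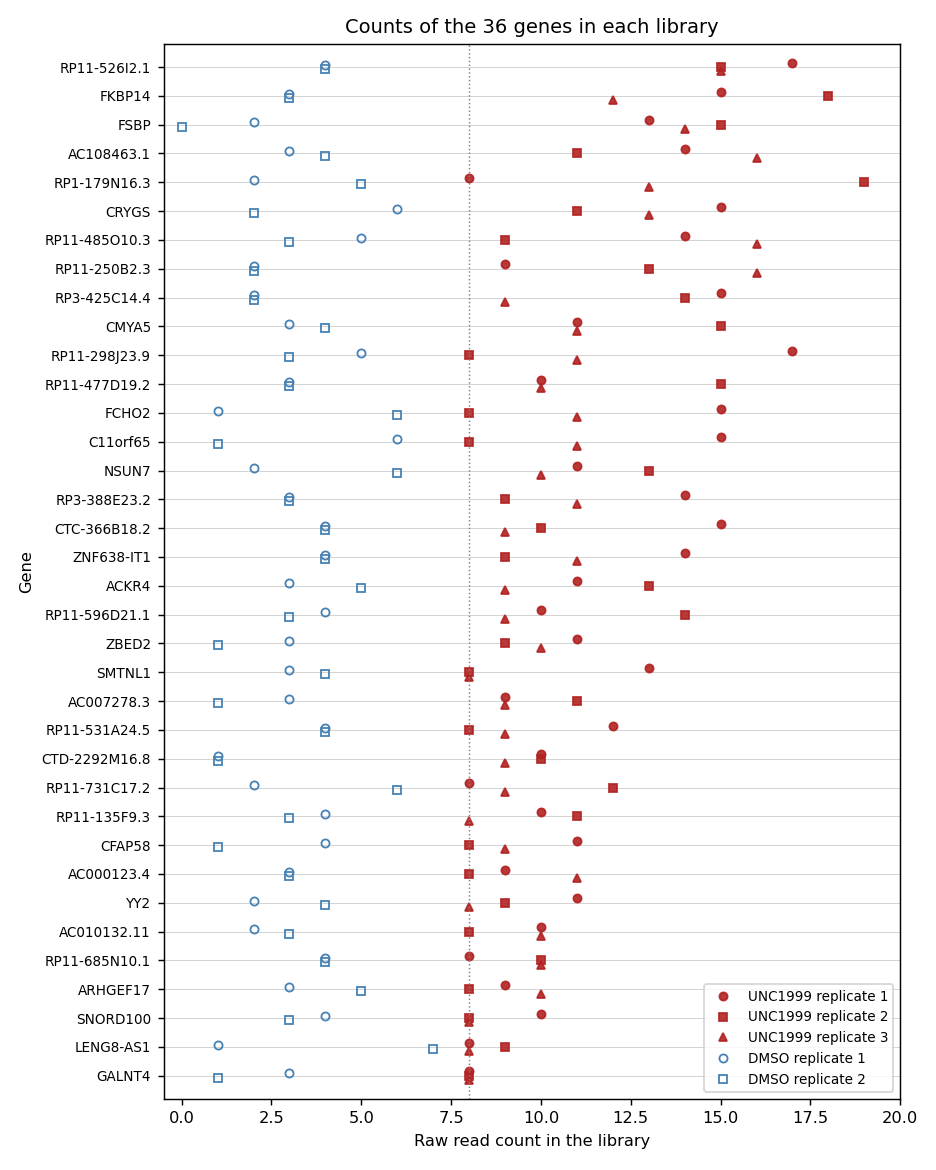
Raw read count (horizontal axis) of each of the 36 genes (vertical axis, in order of mean UNC1999 count) in the 3 UNC1999 libraries (filled red symbols) and the 2 DMSO libraries (open blue symbols). The dotted line marks 8 reads, the bound for UNC1999 libraries, and all UNC1999 counts lie between 8 and 19 while all DMSO counts lie between 0 and 7.

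Genes with a DMSO total of 0 had no place in the set. There were 33352 such lines, and 29707 of them (89.1%) also had 0 reads in all 3 UNC1999 libraries. Among the highest of the remainder was GPR183, an oxysterol receptor gene of lymphocytes, with 5, 6 and 4 reads with UNC1999 and none with DMSO. DENND2C had 4, 4 and 6 with UNC1999 and none with DMSO, and STK38L, a kinase gene of the Hippo-related NDR family, had 3, 5 and 7 with UNC1999 and none with DMSO. GPR183, DENND2C and STK38L were picked here after their values were seen. The share of lines that met the UNC1999 bound was 0% at DMSO totals of 0 and 1, 0.139% at 2, 0% at 3, 0.769% at 4, 0.377% at 5, 1.34% at 6, 2.73% at 7 and 4.64% at 8. The set was therefore drawn mainly from genes that already had a few reads in DMSO, with 27 of 36 at totals of 6 to 8. The rule used both of these values, so the shares are given as a description.

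**Figure D3:**
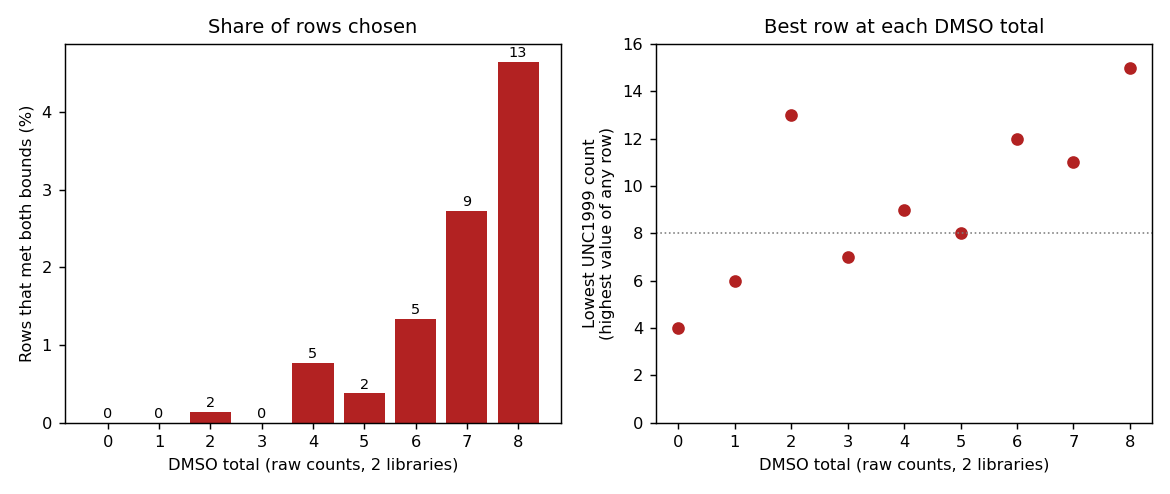
Left, percentage of table lines at each DMSO total (horizontal axis, raw counts summed over 2 libraries) that met both bounds, with the number of genes above each bar. Right, the lowest UNC1999 count of the best line at each DMSO total, with the 8-read bound dotted: at a DMSO total of 0 the best line reached 4, at a total of 2 it reached 13 and at a total of 8 it reached 15.

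FSBP, whose name stands for fibrinogen silencer binding protein, was the gene with the widest ratio. It lies on chromosome 8 at 94372170 to 94436952 (GENCODE 29, GRCh38, as for all gene positions here), minus strand, inside RAD54B. Its counts were 13, 15 and 14 with UNC1999, against 2 and 0 with DMSO. The UNC1999 counts lay close together, and the ratio was 13.9 with an exact 95% interval of 3.6 to 118, which covers counting error only. The next widest ratio, 9.57 (2.42 to 82.8), belonged to CTD-2292M16.8, with 10, 10 and 9 reads with UNC1999 and 1 and 1 with DMSO. FKBP14, which encodes a peptidyl-prolyl isomerase of the endoplasmic reticulum that takes part in collagen folding, lies on chromosome 7 at 30010587 to 30026684. It had 15, 18 and 12 reads with UNC1999, against 3 and 3 with DMSO, a ratio of 4.95 (2.1 to 14.2).

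Other protein-coding genes of the set encode products known from tissues other than lymphocytes. CRYGS, the lens crystallin gene on chromosome 3 at 186538441 to 186546702, had 15, 11 and 13 reads with UNC1999 and 6 and 2 with DMSO. CMYA5, which encodes myospryn, a large protein of striated muscle, lies on chromosome 5 at 79689877 to 79800240 and had 11, 15 and 11 reads with UNC1999 and 3 and 4 with DMSO. SMTNL1, a smoothelin-like gene of muscle, had 13, 8 and 8 with UNC1999 and 3 and 4 with DMSO. In these 3 genes the highest DMSO count was 6 and the lowest UNC1999 count 8. CFAP58, a gene of cilia and flagella, had 11, 8 and 9 reads with UNC1999 and 4 and 1 with DMSO. NSUN7, known in the mouse for a role in sperm motility, lies on chromosome 4 at 40749897 to 40809985 and had 11, 13 and 10 with UNC1999 and 2 and 6 with DMSO.

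Genes of trafficking, signalling and glycosylation were also present. FCHO2, on chromosome 5 at 72955981 to 73090522, had 15, 8 and 11 reads with UNC1999 and 1 and 6 with DMSO. ACKR4, an atypical chemokine receptor gene whose product scavenges CCL19, CCL21 and CCL25, lies on chromosome 3 at 132597237 to 132618967 and had 11, 13 and 9 with UNC1999 and 3 and 5 with DMSO. The DMSO libraries differed more for FCHO2 than for ACKR4. ARHGEF17, a guanine nucleotide exchange factor gene, had 9, 8 and 10 with UNC1999 and 3 and 5 with DMSO. GALNT4, which starts mucin-type O-glycosylation, had 8, 8 and 8 with UNC1999 and 3 and 1 with DMSO. For ARHGEF17 the interval of the ratio of 2.23 was 0.984 to 5.67, and for LENG8-AS1, an antisense RNA gene, that of the ratio of 2.06 was 0.902 to 5.29. Those intervals reach 1. The genes were chosen on these same counts, and the rule by itself demands a mean count at least 2-fold higher with UNC1999. The intervals make no allowance for that choice, so they do not tell firm genes from weak ones.

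Transcription regulators and small RNAs made up a few more. ZBED2, on chromosome 3 at 111592900 to 111595443, had 11, 9 and 10 reads with UNC1999 and 3 and 1 with DMSO. YY2, a retroposed copy of the zinc finger gene YY1, lies on chromosome X at 21855987 to 21858727. It had 11, 9 and 8 with UNC1999 and 2 and 4 with DMSO. These counts are uncertain because reads may be shared with its parent gene or with MBTPS2, whose exons overlap it on the same strand. SNORD100, a small nucleolar RNA gene, had 10, 8 and 8 with UNC1999 and 4 and 3 with DMSO. LENG8-AS1 had 8, 9 and 8 with UNC1999 and 1 and 7 with DMSO, so its highest DMSO count lay 1 read below its lowest UNC1999 count.

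The remaining genes are hard to name. In 19 of the 36 (52.8%) the symbol was a clone-based identifier such as RP11-526I2.1, compared with 42.3% of all lines at or under the DMSO bound and 35.6% of lines with a symbol found once. These 19 and ZNF638-IT1 were not matched to the annotation, which matched 14 protein-coding genes, SNORD100 and LENG8-AS1. RP11-526I2.1 had the highest mean count of the set, not corrected for length, with 17, 15 and 15 reads with UNC1999 and 4 and 4 with DMSO. AC108463.1 had 14, 11 and 16 with UNC1999 and 3 and 4 with DMSO, and RP11-485O10.3 had 14, 9 and 16 with UNC1999 and 5 and 3 with DMSO. These 3 lay within the range of the protein-coding genes of the set. RP11-250B2.3 had 9, 13 and 16 with UNC1999 and 2 and 2 with DMSO. RP3-425C14.4 had 15, 14 and 9 with UNC1999 and 2 and 2 with DMSO, and RP11-477D19.2 had 10, 15 and 10 with UNC1999 and 3 and 3 with DMSO. The 11 clone-based genes outside the 12 highest means had UNC1999 counts from 8 to 15.

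Within the UNC1999 group the counts scattered. The highest count divided by the lowest had a median of 1.41. It was widest in RP1-179N16.3, with 8, 19 and 13 reads with UNC1999 and 2 and 5 with DMSO, and in RP11-298J23.9, with 17, 8 and 11 with UNC1999 and 5 and 3 with DMSO. FCHO2 and C11orf65, each with 15, 8 and 11 reads with UNC1999, came next. Counting ties, the highest count fell in UNC1999 replicate 1 for 18 genes, in replicate 2 for 15 and in replicate 3 for 8, so no library supplied all the highest counts.

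Small steps over the bounds changed the list. At a DMSO total of 9, 18 further genes had at least 8 reads in each UNC1999 library. They included DDX4, a germ cell RNA helicase gene, with 13, 16 and 15 reads with UNC1999 and 4 and 5 with DMSO, and TOMM5, a subunit gene of the mitochondrial import pore, with 17, 19 and 14 with UNC1999 and 7 and 2 with DMSO. RBM41 had 16, 10 and 10 with UNC1999 and 5 and 4 with DMSO, and NIPAL1 had 13, 9 and 9 with UNC1999 and 3 and 6 with DMSO. The counts of DDX4 and TOMM5 are as high as those of the best genes inside the bounds. At a lowest UNC1999 count of 7, 28 genes were just outside. LRRC7 had 7, 11 and 11 with UNC1999 and 4 and 0 with DMSO, and SYT5, a synaptotagmin gene, had 7, 10 and 10 with UNC1999 and 2 and 3 with DMSO. EPB41L5 had 8, 7 and 14 with UNC1999 and 2 and 5 with DMSO. With 1 library left out and the bounds per library kept, 59 (without DMSO replicate 1), 76 (without DMSO replicate 2), 62, 60 and 68 (without UNC1999 replicate 1, 2 or 3) genes met the rule. With counts scaled by TMM factors (1.02, 1.05 and 1.01 for UNC1999, 0.954 and 0.961 for DMSO) before the same bounds, 12 of the 36 were left and no gene was gained.

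A few genes went the other way. The same shape of rule with the groups exchanged, a UNC1999 total of at most 12 and at least 8 reads in each DMSO library, gave 17 genes, 7 of them with clone-based names. They included GLP1R, the receptor gene for glucagon-like peptide 1, with 3, 1 and 5 reads with UNC1999 and 20 and 17 with DMSO, and KCNE3, a potassium channel subunit gene, with 3, 1 and 7 with UNC1999 and 13 and 20 with DMSO. HLA-DQA1, a class II antigen presentation gene, had 4, 1 and 7 with UNC1999 and 8 and 10 with DMSO. With 3 and 2 libraries the rules are not equally strict, since 3 libraries must pass in one direction and 2 in the other, so 36 and 17 are not a test of balance. Without DMSO replicate 1 or 2, or without UNC1999 replicate 1, the 17 became 74, 78 and 29. GLP1R, KCNE3 and HLA-DQA1 were picked for this text after their values were seen.

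In the test across all genes (edgeR quasi-likelihood, with Benjamini-Hochberg adjustment and a threshold of 0.05), 22 of the 36 passed the filter on low counts and 18 of those were called higher with UNC1999 and 0 lower. Over all 13075 tested genes, 15.7% were called higher and 19.5% lower, 35.2% in all. In the 36 genes every UNC1999 count was above both DMSO counts, as it was in CPM for 24.2% of all tested genes. The rule used the same contrast, so nothing is read from these differences. Without normalization factors, 2951 genes were called higher and 1738 lower, against 2057 and 2546 with TMM factors. The calls of the set also moved with the libraries kept: 7 of 34 tested were called without DMSO replicate 1 and 6 of 32 without DMSO replicate 2, against 8 of 10, 12 of 12 and 9 of 12 without UNC1999 replicate 1, 2 or 3. Over all genes, 1159 and 1311 were called higher in the fits without DMSO replicate 1 or 2, and 1751, 2862 and 1821 in those without UNC1999 replicate 1, 2 or 3. DESeq2's Wald test gave an unadjusted p for all 36 and an adjusted p for 0 of them.

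Low counts were also compared across the whole table. In the UNC1999 libraries 20330, 20127 and 20169 lines had at least 1 read, against 19801 and 19745 with DMSO, and 13371, 13334 and 13261 had at least 8 reads, against 13107 and 13148. The 2273 lines with 20 to 60 reads over all libraries, a range chosen without regard to group, summed to 2000, 1920 and 1870 CPM with UNC1999 and to 1760 and 1730 CPM with DMSO. On these values, which use library totals alone, the groups did not overlap in any measure. The TMM factors were 1.02, 1.05 and 1.01 for UNC1999 and 0.954 and 0.961 for DMSO. Divided by these factors as well, the summed CPM of UNC1999 replicate 2 falls below that of DMSO replicate 1, so the groups overlap. An exact two-sided permutation test on the values without TMM factors gave p = 0.2 for each measure, the smallest value that 3 against 2 libraries allow.

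Lists of the gene classes for which polycomb is best known held 508 genes with a symbol on 1 line, and 398 of them were at or under the DMSO bound. None of the 398 was among the 36, beside a share of 0.0878% over all lines at or under the bound, at which less than 1 gene would fall in lists of this size. Of the 398, 4 (1.01%) reached 8 reads in any UNC1999 library, close to the 0.936% of all such lines. Of 145 developmental transcription factor genes 121 were at or under the bound, and 84 of these had no read in any library. Summed over the 121, counts were 32, 36 and 31 with UNC1999, against 29 and 28 with DMSO. For 52 near-silent genes of WNT, BMP, SHH, FGF and NOTCH ligands and inhibitors, the sums were 31, 34 and 38 with UNC1999 and 24 and 31 with DMSO. Those of 69 germline and cancer-testis genes were 18, 24 and 22 with UNC1999 and 15 and 18 with DMSO. The groups were a few reads apart in the transcription factor list and touched in the signalling and germline lists.

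**Figure D4:**
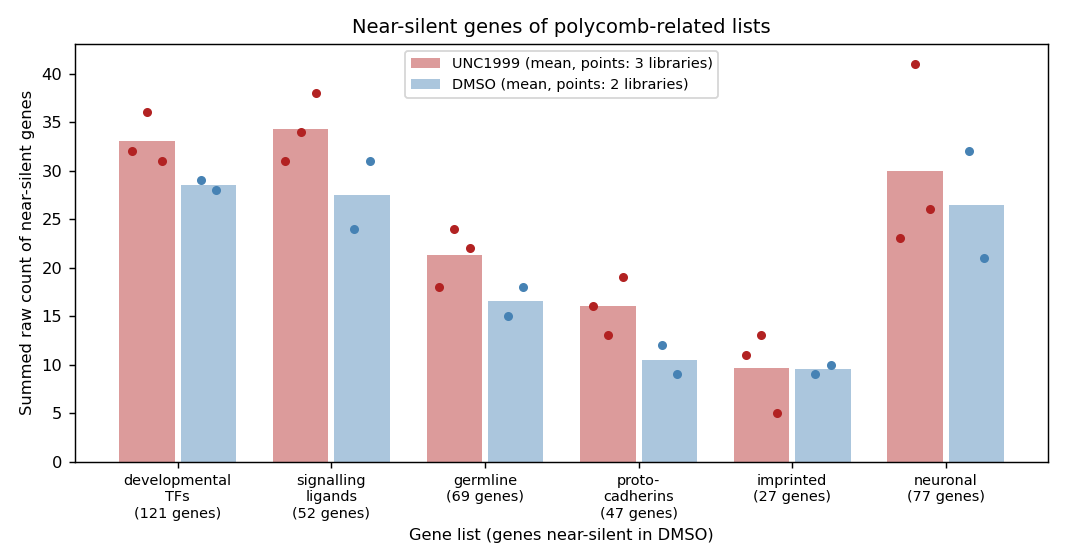
Summed raw counts (vertical axis) of genes near silence in DMSO in 6 lists (horizontal axis), with the mean of 3 UNC1999 libraries (red bars) left of the mean of 2 DMSO libraries (blue bars) and each library as a point. The developmental transcription factors gave 31 to 36 reads with UNC1999 and 28 to 29 with DMSO, and the neuronal genes 23 to 41 with UNC1999 and 21 to 32 with DMSO.

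Protocadherins, cell adhesion genes of the nervous system whose clusters are controlled at the level of chromatin, gave sums of 16, 13 and 19 with UNC1999 over 47 near-silent genes and 12 and 9 with DMSO. For 27 imprinted genes the sums were 11, 13 and 5 with UNC1999 and 9 and 10 with DMSO, and for 77 neuronal genes 23, 41 and 26 with UNC1999 and 32 and 21 with DMSO. In the imprinted and neuronal lists the groups overlapped. Of 8 CDK inhibitor genes 3 were near silence. CDKN1A, the gene of a p53-induced cell cycle inhibitor, had 1, 2 and 1 reads with UNC1999 and 2 and 0 with DMSO, and CDKN2B, a classic polycomb target gene, had 0, 2 and 2 with UNC1999 and 1 and 1 with DMSO. Near-silent subunit genes of PRC2 (2 of 13) and PRC1 (2 of 20) had at most 2 reads in a library. The 4 genes that reached 8 reads in at least 1 UNC1999 library, named for being so few, were TEX14 with 0, 4 and 8 (2 and 3 with DMSO), DLL4 with 3, 6 and 10 (3 and 5 with DMSO), WNT10A with 3, 3 and 8 (3 and 4 with DMSO) and SCN3A with 6, 11 and 6 (4 and 3 with DMSO).

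List genes with enough reads to be tested moved in both directions. Of 22 tested developmental transcription factor genes 0 were called higher and 7 lower, and their median log2 fold change was -0.26, against -0.01 over all genes tested; with offsets for GC content and length 1 was higher and 3 lower. EOMES, a T-box factor gene of NK and T cell differentiation, averaged 102.3 ± 6.54 CPM with UNC1999 (SD, n = 3) and 170.8 ± 4.63 CPM with DMSO (SD, n = 2), and fell by 0.74 ± 0.11 on the log2 scale (SE, edgeR adjusted p = 1.86e-06), or by 0.42 with the offsets. HOXA9, a homeobox gene of blood progenitors, averaged 16.1 ± 0.877 CPM with UNC1999 and 24.8 ± 0.416 CPM with DMSO, and fell by 0.63 ± 0.14 (edgeR adjusted p = 0.000382), a call lost with the offsets (0.0548). The calls in the other lists stand beside 15.7% higher and 19.5% lower over all genes tested. Of 8 tested signalling genes 1 was higher and 1 lower, of 7 germline genes 2 were higher and 0 lower, and of 14 neuronal genes 2 were higher and 1 lower. Of 11 tested PRC2 subunit genes 4 were higher and 2 lower, of 18 PRC1 subunit genes 4 were higher and 4 lower, of 8 imprinted genes 1 was higher and 2 lower, and of 5 CDK inhibitor genes 0 were higher and 2 lower. KCNQ5, a potassium channel gene, averaged 36.3 ± 2.68 CPM with UNC1999 and 18.1 ± 0.91 CPM with DMSO and rose by 1.01 ± 0.13 (edgeR adjusted p = 4.98e-07). LRP1B, a lipoprotein receptor family gene with 16.8 CPM with UNC1999 and 7.54 CPM with DMSO on average, rose by 1.15 ± 0.18 (edgeR adjusted p = 6.07e-06), or by 0.73 with offsets, and both genes were far above the DMSO bound.

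Among list genes called higher in the test, those closest to the set in level were WNT2B, a WNT ligand gene, and DDX4. WNT2B averaged 2.39 ± 0.35 CPM with UNC1999 (SD, n = 3) and 0.853 ± 0.0261 CPM with DMSO (SD, n = 2), and rose by 1.47 ± 0.41 (edgeR adjusted p = 0.00438). DDX4 rose by 1.56 ± 0.49 (edgeR adjusted p = 0.0122), and DMC1, a meiotic recombinase gene with 7.81 ± 0.543 CPM with UNC1999 and 5.19 ± 0.762 CPM with DMSO, by 0.59 ± 0.21 (edgeR adjusted p = 0.0224). Each of these calls rested on both DMSO libraries. Without DMSO replicate 1 or 2 the adjusted p was 0.0551 and 0.0598 for WNT2B, 0.137 and 0.0837 for DDX4 and 0.0506 and 0.234 for DMC1, and without UNC1999 replicate 1 it was 0.0527 for DMC1. With GC and length offsets and a replicate block together it was 0.071 for DDX4 and 0.0588 for DMC1, and DESeq2 gave 0.121 for DMC1.

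Among the drug targets and core PRC2 subunits, SUZ12 and EZH1 passed the test. EZH2 differed by 0.20 ± 0.11 on the log2 scale (edgeR adjusted p = 0.178) and EED, a core PRC2 subunit gene, by 0.11 ± 0.13 (edgeR adjusted p = 0.534). Without normalization factors EZH2 was called higher, by 0.30 (edgeR adjusted p = 0.0349). EZH1 fell by 0.31 ± 0.12 (edgeR adjusted p = 0.048), a call lost without DMSO replicate 1 (0.259) or 2 (0.129), without UNC1999 replicate 1 (0.0751) or 3 (0.19), with GC and length offsets (0.972) and under most other settings tried. SUZ12, another core subunit gene, rose by 0.67 ± 0.11 (edgeR adjusted p = 1.78e-05), and by 0.31 with GC and length offsets, a call lost with these offsets and a replicate block together (0.0607). These levels of transcript say nothing of enzyme activity.

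Position was a feature that the rule did not use. Of the 14 protein-coding genes of the set, 7 overlapped another protein-coding gene and 5 (35.7%) lay wholly inside one, 3 on the same strand and 2 on the opposite strand. Among 8231 other protein-coding genes at or under the DMSO bound, 23.1% overlapped another and 6.84% lay inside one, and among 10503 above the bound 37.8% overlapped and 3.64% lay inside. These shares are descriptive, since 14 genes carry little precision. The sources used here do not say how reads in overlapping genes were assigned or whether strand was used, and what reads of the other transcript add to these counts was not tested.

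Of 8 tested genes at the same locus as a gene of the set, 6 were called higher with UNC1999 and 1 lower, beside 15.7% and 19.5% of all genes tested. ATM is the DNA damage kinase gene whose body and exons overlap C11orf65 on the opposite strand. It had 319, 280 and 342 reads with UNC1999 and 153 and 122 with DMSO, and rose by 1.07 ± 0.15 on the log2 scale (edgeR adjusted p = 6.12e-07). C11orf65 itself had 15, 8 and 11 reads with UNC1999 and 6 and 1 with DMSO, 3.61% of the ATM count with UNC1999 and 2.55% with DMSO. CD96, an NK cell receptor gene that contains ZBED2 on the opposite strand with no exon shared, had 1287, 1524 and 1296 reads with UNC1999 and 677 and 843 with DMSO, and rose by 0.73 ± 0.12 (edgeR adjusted p = 6.61e-06). ZBED2 counts were 0.73% of those of CD96 with UNC1999 and 0.263% with DMSO. In both pairs every UNC1999 library of the larger gene was above both DMSO libraries. MBTPS2 is the site-2 protease gene that contains YY2 on the same strand with exons in common. It had 143, 147 and 108 with UNC1999 and 73 and 67 with DMSO, and rose by 0.80 ± 0.17 (edgeR adjusted p = 0.000381). ZNF638, the nucleic acid binding protein gene for which ZNF638-IT1 is named as an intronic transcript, had 391, 347 and 415 with UNC1999 and 202 and 211 with DMSO, and rose by 0.78 ± 0.13 (edgeR adjusted p = 1.49e-05). ZNF638-IT1 had 14, 9 and 11 reads with UNC1999 and 4 and 4 with DMSO, 2.95% of the ZNF638 count with UNC1999 and 1.94% with DMSO. With GC and length offsets the increase was 0.50 for ATM, 0.42 for MBTPS2 and 0.37 for ZNF638, and each was still called; with a replicate block added to the offsets the call of ZNF638 was lost (0.106).

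The partners of FSBP and GALNT4 were called higher in some fits and not in others. RAD54B, the homologous recombination gene that contains FSBP on the same strand with exons in common, had 24, 24 and 12 reads with UNC1999 and 9 and 7 with DMSO, and rose by 1.19 ± 0.42 (edgeR adjusted p = 0.0244). That call was lost without DMSO replicate 1 (0.0925) or 2 (0.21), without UNC1999 replicate 1 (0.0714) or 2 (0.0587) and with offsets (0.104). FSBP counts were 70.0% of those of RAD54B with UNC1999 and 12.5% with DMSO, the widest gap among the 8 pairs plotted here. POC1B, a centriole gene that contains GALNT4 on the same strand, had 182, 205 and 176 with UNC1999 and 122 and 134 with DMSO, and rose by 0.43 ± 0.14 (edgeR adjusted p = 0.0156), a call lost without DMSO replicate 1 (0.144) or 2 (0.0748), with DESeq2 (0.0627) and with offsets, where the value was -0.0066. GALNT4 also shares exons with the readthrough gene POC1B-GALNT4, which had 2, 4 and 3 reads with UNC1999 and 5 and 3 with DMSO, so its count is uncertain.

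TBCCD1 and RPS12 were not called higher. TBCCD1, whose body overlaps CRYGS on the same strand with exons in common, had 202, 204 and 185 with UNC1999 and 208 and 220 with DMSO, a difference of -0.24 ± 0.13 (edgeR adjusted p = 0.156). CRYGS amounted to 6.6% of the TBCCD1 count with UNC1999 and 1.87% with DMSO. RPS12, the ribosomal protein gene that holds SNORD100 in an intron, had 3630, 4950 and 3773 with UNC1999 and 4566 and 5895 with DMSO, and fell by 0.46 ± 0.12 (edgeR adjusted p = 0.002), a call lost without DMSO replicate 2 (0.175) and with offsets (0.249). SNORD100 counts were 0.21% of those of RPS12 with UNC1999 and 0.0669% with DMSO. Partners at very low counts were not tested. ACAD11, on the strand opposite ACKR4 and with overlapping exons, was itself near silence. It had 7, 8 and 5 reads with UNC1999 and 1 and 4 with DMSO. LENG8, opposite LENG8-AS1 and also with overlapping exons, had 4, 4 and 4 with UNC1999 and 3 and 2 with DMSO.

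**Figure D5:**
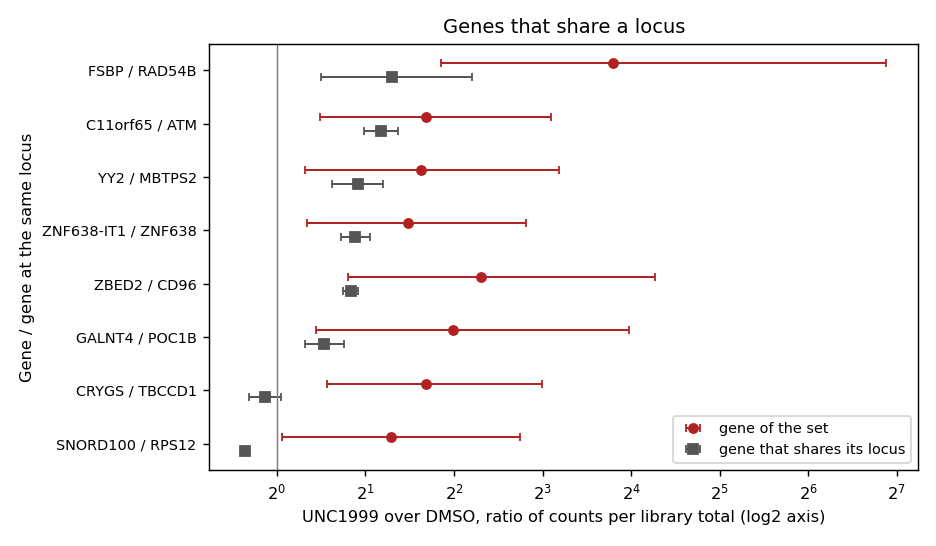
Ratio of UNC1999 to DMSO counts per library total (horizontal axis, log2 scale) with exact 95% intervals for counting error only, for 8 genes of the set (red circles) and the gene at the same locus (grey squares). Ratios of the larger genes run from 0.779 for RPS12 to 2.47 for RAD54B, and those of the set from 2.45 for SNORD100 to 13.9 for FSBP.

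Neighbours that do not overlap were examined too. The 32 nearest protein-coding neighbours were taken only from symbols found once in both the count table and the annotation. Genes whose symbol did not match were passed over, so a closer gene may exist. Distances ran from 42 bases (NSUN7 to APBB2) to 423721 (SNORD100 to EYA4). They were 58205 bases for DNAJC13, 176491 for MTX3, 39248 for TNPO1 and 186011 for SORCS3. Of the 32, 13 were at or under the DMSO bound and 19 were tested. Of those tested, 6 (31.6%) were called higher and 4 lower, beside 15.7% and 19.5% of all genes tested. Their median log2 fold change was 0.14, against -0.01 over all genes tested. DNAJC13, an endosomal chaperone gene near ACKR4, had 332, 305 and 340 reads with UNC1999 and 150 and 151 with DMSO, and rose by 0.995 ± 0.13 (edgeR adjusted p = 5.52e-07), or by 0.67 with offsets. MTX3, a mitochondrial outer membrane protein gene near CMYA5, had 159, 132 and 121 with UNC1999 and 62 and 61 with DMSO, and rose by 1.04 ± 0.18 (edgeR adjusted p = 1.64e-05), or by 0.53 with offsets. TNPO1, an import receptor gene near FCHO2, rose by 0.55 ± 0.11 (edgeR adjusted p = 0.00018), but with offsets the value was -0.03 and the call was lost (0.823). Other neighbours were silent, such as SORCS3 near CFAP58 with 0 reads in all libraries.

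GC content of the transcript moved with the fold change in this experiment. In the decile of tested genes lowest in GC (median 36.8%), the median log2 fold change was 0.41 and 49.7% were called higher. In the sixth decile (median 49.5%) the values were -0.37 and 2.19%, and in the highest decile (median 63.8%) 0.17 and 14.9%. The 14 protein-coding genes of the set had a median GC content of 43.1% (35.7% to 62.8%), and 10 of them were below 45%. Other protein-coding genes at or under the DMSO bound had a median of 49.9% and those above it 48.1%. Median transcript lengths were 3027 bases in the set, 2650 in the other near-silent genes and 3671 above the bound. In a fit with offsets for GC content and length, 9 annotated genes of the set were tested and 5 were called higher, against 7 of the same 9 on annotated genes without offsets. What the GC trend adds to the set as a whole was not tested, since the clone-based genes were given no GC value here.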

How the data were processed

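RNA from 5 libraries was sequenced. The labels' protocols name Trizol for extraction of total RNA and an NEBNext Ultra kit for the libraries. The authors deposited raw read counts per gene symbol. HTSeq 0.13.5, STAR 2.7.9, fastp, the build hg19 and edgeR 3.34.0 appear in the submitters' processing notes with no role or setting. The sources used here do not give the strand setting, RNA selection, annotation or filters. The 36 genes, the gene lists and the alternatives were chosen with earlier results of these data known, and genes were named by rank of mean count, spread, closeness to a bound, position and list, or else as the text says.

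The 1939 lines of 222 repeated symbols stayed in library totals and in the test but could not enter the set, and none met both bounds. All genes were tested with edgeR 4.0.16 in R 4.3.3 (filterByExpr, TMM, quasi-likelihood F-test, Benjamini-Hochberg over 13075 genes), and these steps were tested on simulated data. CPM in group means uses TMM factors; other CPM uses library totals. Ratio intervals are exact (Clopper-Pearson, 95%). PCR duplicates make reads not fully independent. GENCODE 29 (GRCh38) gave GC content, length and positions by symbol, with no conversion from hg19, and RefSeq GRCh38.p14 the promoters. Alternatives were other bounds, DESeq2 1.42.0 size factors and Wald test, no factors, other filters, a replicate block, GC and length offsets (splines of 6 and 4 degrees of freedom, annotated genes) and each library left out.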

Additional observations from a re-analysis of the deposited data

How the results depend on the processing

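The set depended on its bounds. Of the 36 genes, 7 were left at a DMSO total of at most 4, 0 at a total of 0, 3 with at least 12 reads in each UNC1999 library, 0 with at least 16 and 12 after TMM scaling; keeping repeated symbols gave 36. Leaving out a library gave 59 to 76 genes, 29 to 36 of them shared with the 36. Genes lying inside any other annotated gene numbered 7, with 4 on the same strand and 3 on the opposite strand. The 17 genes of the reverse rule became 1 at a UNC1999 total of at most 6, and 23 to 78 with a library left out.

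Genes of the set called higher were 18 of 22 tested in the reported fit, where 15.7% of all tested genes were called higher. Only 9 were tested on annotated genes. Of these, 5 were called with GC and length offsets, 4 with these offsets and a replicate block, and 7 without offsets (added after seeing the data). Calls were 20 of 22 with DESeq2 size factors and 21 of 22 without factors. They were 21 of 36 without a filter and 22 of 32 with at least 1 CPM in 2 libraries. With a library left out, 6 to 12 were called, of 10 to 34 tested. The median log2 fold change of those tested was 1.70, and 1.80 without factors, 1.55 without a filter, 1.56 with at least 1 CPM in 2 libraries, 1.44 with offsets, 1.47 with offsets and the block, 1.55 on annotated genes only and 1.61 to 1.85 with a library left out. Fewer genes of the set pass in some of these fits, so the medians are over different genes. Over all genes, offsets with the block called 1043 higher and 1473 lower, and leaving out a library 1159 to 2862 higher and 1368 to 3030 lower. The cause of these shifts was not tested.

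Values that turned sign were EED, at -0.15 with offsets, -0.15 with offsets and the block and -0.0157 to 0.25 with a library left out (lowest without DMSO replicate 1); EZH1, at 0.0307 with offsets and the block; POC1B, at -0.0066 with offsets; and TNPO1, at -0.0269 with offsets and -0.0552 with offsets and the block. Among the genes of the set, whose direction the rule fixes, 173 values kept their side of the threshold, 10 gained a call and 32 lost one. Replicate numbers are shared by 2 pairs, whose deviations from the group mean correlated at 0.0658 and 0.0381. With 2 DMSO libraries the deviations of one mirror those of the other, so these values cannot settle whether the numbers pair the libraries. No label states a pairing, and the reported fit uses none. The replicate block alone gave 18 genes of the set called higher, 1886 of all genes higher and 2136 lower. DESeq2 gave no adjusted p for the set. Counts of 0 to 19 reads limit what can be said of single genes of the set.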
